A study of Mus musculus with 2 samples.

Results

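Inflammatory macrophages of the mouse aorta were examined here as single droplet barcodes that carried macrophage transcripts together with transcripts of the chemokines Ccl3, Ccl4 and Cxcl2 and of Nlrp3. A barcode was a member when it had at least 500 detected genes and at most 10% mitochondrial UMIs, where a UMI (unique molecular identifier) stands for 1 counted RNA molecule and detected means at least 1 UMI. It also had to hold at least 3 of the 5 macrophage genes C1qa, C1qb, C1qc, Csf1r and Cd68, at least 3 of the 4 genes Ccl3, Ccl4, Cxcl2 and Nlrp3, and at most 1 UMI of Arg1. At most 1 of the 5 cell cycle genes Mki67, Top2a, Birc5, Cdk1 and Ube2c was allowed, and no UMI of the lymphocyte genes Cd79a and Cd3e. Of 19897 kept barcodes, 805 met this rule, 572 of 11168 in the Cept1 library and 233 of 8729 in the control library.

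The study compared whole aortas, from the arch to the distal bifurcation, of male C57BL6 mice that were Cept1fl/fl Cre+ or Cept1fl/fl Cre-. In the Cre+ mice a tamoxifen-inducible Cre (VE-cadherin-Cre-ERT2), driven by an endothelial promoter, was used to raise Cept1, a phospholipid synthesis enzyme, in endothelial cells, so that macrophages are not the cells in which the gene is meant to change. Both groups carry the Cept1fl/fl allele, and the labels describe tamoxifen (5 injections of 1 mg, then 5 days of recovery) for the littermates. The age is given both as 6 to 8 weeks and as at least 8 weeks at treatment. There were 3 mice per condition and 1 library per genotype (10x Genomics 3' chemistry, version 3), and neither the pooling of mice nor the gate of the sort before loading is stated in the labels. With 1 library per group no difference between libraries could be tested: every interval below is an exact 95% Clopper-Pearson interval that covers counting error only, and differences between mice are not in it.

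Macrophages of the vessel wall include long-lived residents that carry Lyve1, Folr2 and Cd163 and scavenge debris, and cells that arrive from blood monocytes through the receptor Ccr2. When pattern recognition or cytokine receptors fire, the transcription factor NF-κB moves to the nucleus and switches on chemokines, cytokines and its own inhibitors within a short time. Ccl3 and Ccl4 draw monocytes and T cells, Cxcl2 draws neutrophils through Cxcr2, and Nlrp3 is the sensor of an inflammasome that activates caspase-1, which cleaves the IL-1β precursor. Enzymatic digestion of tissue is itself known to induce many of these genes in macrophages, and these aortas were digested with enzymes in a warm bath before the libraries were made.

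The libraries held 95735360 UMIs over 17728 barcodes (Cept1) and 88220524 UMIs over 14349 barcodes (control). Members summed to 5876034 and 3251880 UMIs, with medians per cell of 9159 and 12387. The members of the control library were thus the deeper ones, and the rule asks for detected genes, so shares are also given after every barcode was thinned to 3000 UMIs. The rule left out 10 otherwise qualifying barcodes of the Cept1 library and 0 of the control library for Arg1, 27 and 19 for cycle genes and 18 and 16 for lymphocyte genes (a barcode may fail more than 1 of these). A Scrublet doublet score of at least 0.25 was held by 56 of the 572 Cept1 members and 3 of the 233 control members. The libraries had 74 barcode sequences in common; 6 Cept1 members and 2 control members carried such a barcode.

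Of the 8 macrophage markers fixed for the check of the label, 5 are the rule's own, which leaves Adgre1, Fcgr1 and Mertk. Adgre1 stood at 541 and 478 CPM (a gene's UMIs summed over a group of cells, per 1000000 of all UMIs of those cells) in Cept1 and control members, against 3.7 and 3.1 CPM in barcodes gated as fibroblasts. Fcgr1 stood at 98.9 and 76.9 CPM against 0.65 and 0.43 CPM, and Mertk at 290 and 267 CPM against 43.8 and 45.5 CPM. In the same members the 5 resident markers summed to 5222 and 5972 CPM, the 5 monocyte markers to 271 and 160 CPM and the 7 neutrophil markers to 668 and 306 CPM. Of the S100a8 UMIs in members, 98.3% and 94.5% lay in 5 cells of each library.

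Members made up 5.12% (4.72 to 5.55) of the kept barcodes of the Cept1 library and 2.67% (2.34 to 3.03) of those of the control library, a ratio of 1.92 (1.64 to 2.24). Most of that ratio was shared by all macrophages: those meeting every gate other than the 4 genes made up 17.9% and 11.1% of kept barcodes. Among these macrophages the members were 28.7% (26.7 to 30.7) of 1994 in the Cept1 library and 24.0% (21.4 to 26.9) of 969 in the control library, a ratio of 1.19 (1.02 to 1.40). After thinning to 3000 UMIs the shares of macrophages were 20.4% (18.5 to 22.3) and 18.3% (15.6 to 21.2), and the interval of their ratio of 1.11 (0.91 to 1.36) included 1. The share of kept barcodes kept its ratio after thinning, at 4.18% and 2.19% and a ratio of 1.91 (1.57 to 2.34), over the 8739 and 6451 kept barcodes with at least 3000 UMIs. A share of droplets depends on dissociation and on the sort, whose part was not tested.

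**Figure D1:**
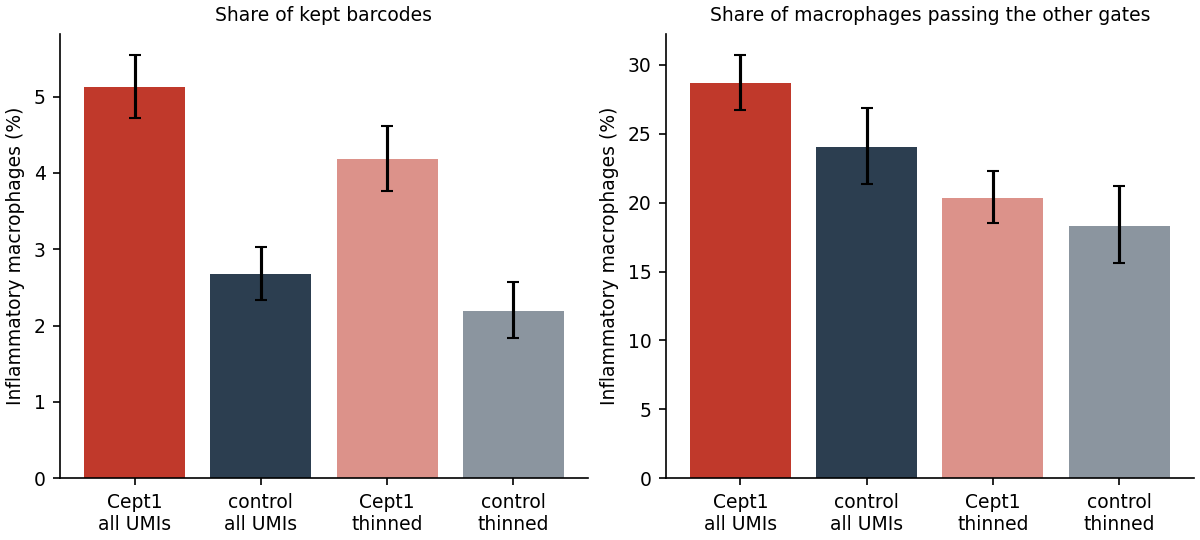
Inflammatory macrophages as a percentage of kept barcodes (left) and of macrophages meeting the other gates (right) in the Cept1 and control libraries, with all UMIs and after thinning each barcode to 3000 UMIs; bars are the share in 1 library and whiskers its exact 95% counting interval. The Cept1 bars stand at 5.12% against 2.67% on the left, and on the right the thinned shares, 20.4% and 18.3%, have intervals that overlap.

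The 4 genes of the rule set the members apart by construction, so their levels are a description. Ccl3 stood at 585 CPM in Cept1 members and 527 CPM in control members, against 8.08 and 2.03 CPM in the macrophages that met every other gate but had at most 1 of the 4 genes, called the comparison macrophages here (855 and 478 cells). Ccl4 stood at 1514 and 1434 CPM in members and at 11.6 and 19.8 CPM in the comparison macrophages. Cxcl2 stood at 5701 and 6425 CPM in members, and at 774 and 849 CPM in the comparison macrophages. Nlrp3 stood at 538 and 605 CPM in members and at 30.2 and 29.5 CPM in the comparison macrophages. Cxcl2 was therefore the gene of the 4 that the comparison macrophages still carried at an appreciable level, and the 567 and 258 macrophages with exactly 2 of the 4 genes lay between, with 3630 and 4289 CPM of Cxcl2 but only 67.4 and 29.6 CPM of Ccl3. Close to the threshold, 347 Cept1 and 137 control members had exactly 3 of the genes and 225 and 96 had all 4. The gene missing from a member was most often Ccl4 (157 and 54 members) or Ccl3 (124 and 56), less often Nlrp3 (57 and 24) and rarely Cxcl2 (9 and 3).

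Thinned to 3000 UMIs, Cxcl2 was detected in 94.4% of Cept1 members and 94.2% of control members, Nlrp3 in 65.9% and 66.8%, Ccl4 in 56.4% and 57.5%, and Ccl3 in 56.8% and 44.2%. In fibroblast-gated barcodes the thinned shares were 6.74% and 5.89% for Cxcl2, 0.85% and 0.57% for Nlrp3, and 1.76% and 1.21% for Ccl4. For Ccl3 they were 0.48% and 0.30%. The median depths of these barcodes were 5477.5 and 5653 UMIs before thinning. Whether free RNA or the fibroblasts' own transcripts gave these shares was not tested. Neutrophil-gated barcodes (148 and 164) carried Cxcl2 at 12993 CPM in the Cept1 library and 1444 CPM in the control library, so Cxcl2 alone does not mark macrophages in this tissue. Cell to cell the chemokines were uneven: per 3000 UMIs the median member had 14 (Cept1) or 15 (control) UMIs of Cxcl2, with a highest cell of 114 and 98, and 1 UMI of Ccl4 in both libraries, with a highest cell of 70 and 69.

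The 2 further marker genes named for these cells were not part of the rule. Ccl12, a monocyte-attracting ligand of Ccr2, stood at 550 and 495 CPM in members and at 160 and 77.5 CPM in the comparison macrophages, log2 ratios of 1.78 and 2.68. C5ar1, the receptor of the complement fragment C5a, stood at 693 and 697 CPM in members and at 436 and 336 CPM in the comparison macrophages, log2 ratios of 0.67 and 1.05. Ccl12 passed the call used below and C5ar1 did not, since its ratio was under 2-fold in the Cept1 library.

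**Figure D2:**
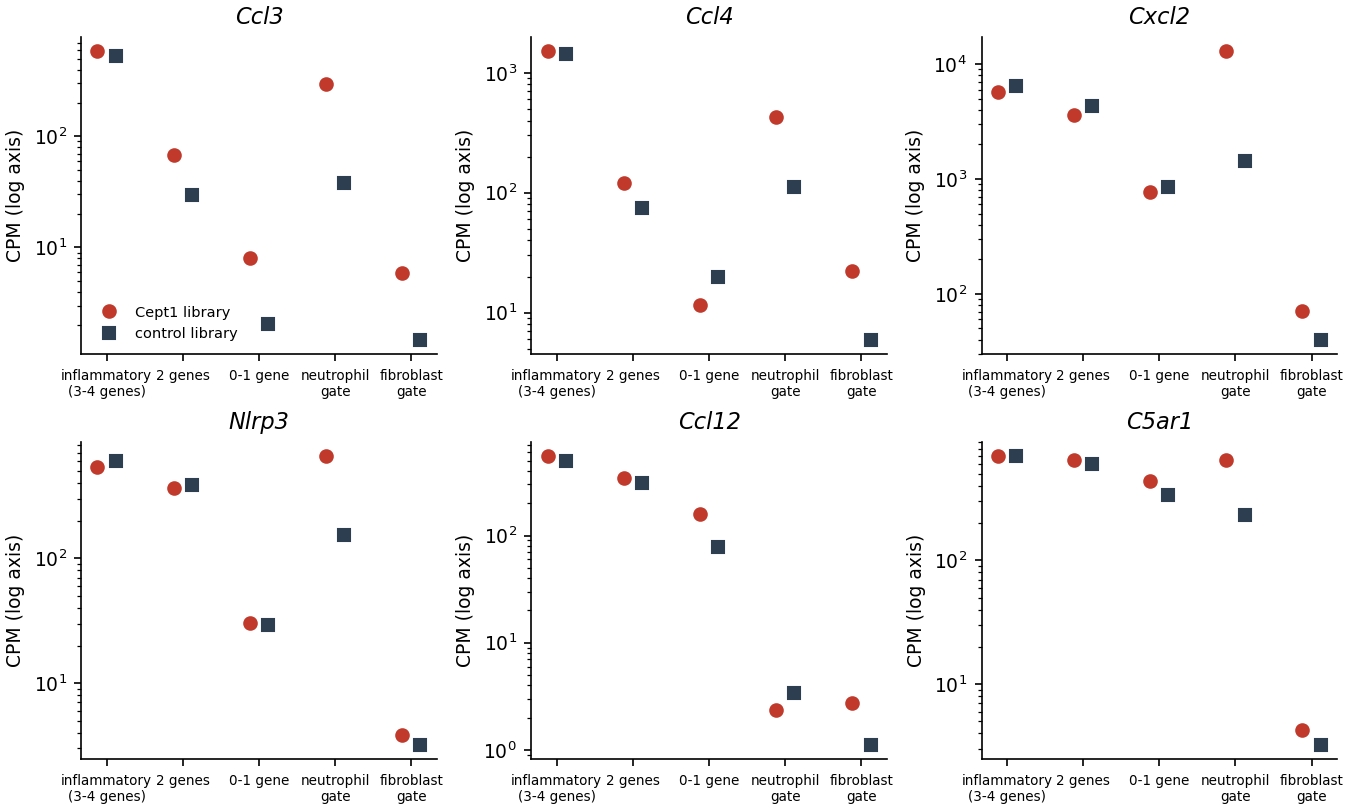
Levels of the 4 rule genes and of Ccl12 and C5ar1 (CPM, log axis) in inflammatory macrophages, macrophages with 2 of the 4 genes, macrophages with at most 1 of them, and neutrophil-gated and fibroblast-gated barcodes; each point is 1 library's summed UMIs. Ccl12 and C5ar1, which the rule did not use, step down from the inflammatory macrophages to the macrophages with at most 1 gene in both libraries.

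Genes outside the rule were then compared between members and comparison macrophages within each library. A gene was called when its CPM differed at least 2-fold in the same direction in both libraries, among the 7952 genes with at least 100 UMIs over both populations in each library. Of these, 152 were higher in members, 1.91% of the genes measured, and 258 were lower, 3.24%, 5.16% in either direction. The 6 fibroblast markers summed to 7031 and 6873 CPM in the comparison macrophages and to 1491 and 1698 CPM in members. The 7 neutrophil markers summed to 219 (Cept1) and 2291 CPM (control) in the comparison macrophages and to 668 and 306 CPM in members. The part of neutrophil RNA in the ratios that use the comparison macrophages, within or between libraries, was not tested. Without barcodes holding markers of other cell types 36 genes were called lower. That filter left 316 and 131 members and 449 and 225 comparison macrophages, so fewer UMIs entered, and the number of genes measured there is not given. The part of fibroblast RNA in the lower calls was not tested. Members were also deeper than the comparison macrophages (medians of 7044 and 6866 UMIs in the latter). In barcodes of 5000 to 15000 UMIs alone, 121 genes were higher and 146 lower.

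The 12 chemokines measured outside the rule had median log2 ratios of 0.67 (Cept1) and 0.85 (control) over comparison macrophages, against -0.17 and -0.19 over all genes, and 6 of the 12 were called higher and 0 lower. Ccl2, the main ligand of Ccr2 and the chemokine that draws monocytes from blood, stood at 1395 and 2326 CPM in members and at 424 and 337 CPM in the comparison macrophages. Ccl7, another Ccr2 ligand, stood at 1212 and 1588 CPM against 409 and 256 CPM. Cxcl1, a neutrophil chemokine, stood at 237 and 360 CPM against 76.5 and 70.9 CPM. Cxcl10, a T cell chemokine induced by interferons, was 2.75 and 2.73 log2 units higher. Cxcl16, a membrane-bound chemokine, was 1.25 and 1.38 log2 units higher, and Ccl12, described above, was the remaining gene of the 6. The chemokines found in most tissue macrophages were not part of this: Ccl6 gave -0.21 and -0.31, Ccl9 gave -0.12 and -0.15, and Pf4 gave 0.09 and 0.31 on the log2 scale. Ccl8 stood apart, with log2 ratios of -0.03 and -1.03.

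Of 16 measured genes of the IL-1 family and inflammasomes, 4 were called higher and 0 lower, and the medians were 0.02 and 0.37. Il1a had 334 and 244 UMIs in members and 4 and 12 in the comparison macrophages, log2 ratios of 6.54 and 4.62 that rest on those few UMIs. Il1b stood at 332 and 338 CPM against 51.7 and 117 CPM, log2 ratios of 2.69 and 1.53. In the comparison macrophages 59.6% and 75.5% of the Il1b UMIs lay in 5 cells of each library. Il1rn, the receptor antagonist that blocks both cytokines, gave 2.68 and 2.07, and Casp4, the caspase that senses intracellular lipopolysaccharide (mouse caspase-11), gave 1.09 and 1.28. Other parts of the Nlrp3 inflammasome had ratios nearer 0: Casp1 gave -0.10 and 0.22 and the adaptor Pycard 0.03 and 0.07. Il18, a cytokine of the IL-1 family, gave 0.11 and -0.43. Il1b was carried by a minority of members, 126 of 572 (22.0%) and 61 of 233 (26.2%).

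Among 16 secreted cytokines and growth factors, 5 were called higher (Tnf, Il10, Osm, Areg and Tnfsf9) and 1 lower (Csf1), with medians of 0.98 and 0.86. Tnf, the cytokine that starts much of the acute inflammatory response, stood at 359 and 449 CPM in members against 55.6 and 61.0 CPM. It was detected in 68.5% of Cept1 members and 81.1% of control members. Il10, which restrains the same response, stood at 116 and 117 CPM against 35.8 and 39.1 CPM. Osm, a cytokine of the IL-6 family, gave log2 ratios of 2.78 and 2.01. Areg was detected in only 4.72% and 8.58% of members, and 77.4% of its UMIs in control members lay in 5 cells. Csf1, the macrophage growth factor, had 88 and 37 UMIs in members against 209 and 161, log2 ratios of -1.09 and -1.85. Fibroblasts are a known source of it, and the part of fibroblast RNA in its ratio was not tested.

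The list of NF-κB components and targets had the highest medians of the 17 lists, 1.12 and 1.16. Of its 25 measured genes 12 were called higher and 0 lower. The subunits Nfkb1 (log2 1.39 and 1.83), Rel (1.57 and 1.68) and Relb (1.28 and 1.43) were among them. So were Nfkbiz (1.32 and 1.25), Nfkbib and the ubiquitin-editing enzyme Tnfaip3 (1.68 and 1.69). Nfkbia, the classical inhibitor IκBα, stood at 1172 and 1454 CPM in members against 512 and 753 CPM in the comparison macrophages, and missed the call with 0.95 in the control library. The survival factor Bcl2a1b gave 2.53 and 2.56, a value made uncertain by its near-identical copies Bcl2a1a and Bcl2a1d, between which reads may be split. Cd83, an activation marker, stood at 1504 and 1966 CPM against 543 and 644 CPM.

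Because these genes stood together, the upstream sequences of the called genes were searched on both strands for the NF-κB consensus, in the 250 bases before each RefSeq start (GRCm38.p6). It was present for 25 of the 110 genes called higher that had an entry (22.7%), for 16 of the 190 called lower (8.42%), for 697 of the 6351 measured genes with an entry (11.0%) and for 2225 of 27025 genes with an entry overall (8.23%). In the NF-κB list itself it was present for 10 of the 18 measured genes with an entry (55.6%). The genes called higher include 12 of that list, and the members were chosen by inflammatory genes, so these shares are a description. Stretches of 60 bases are shown for a gene of the rule with a match, for 3 responsive genes with matches and for Ccl3, which had none in its 250 bases; capitals mark the consensus, and overlapping matches are joined. The stretches lie at chr5:90903778-90903837 (plus strand) for Cxcl2, chr12:55492648-55492707 (minus) for Nfkbia, chr10:19015411-19015470 (minus) for Tnfaip3, chr5:92348958-92349017 (minus) for Cxcl10 and chr11:83649379-83649438 (minus) for Ccl3.
Cxcl2: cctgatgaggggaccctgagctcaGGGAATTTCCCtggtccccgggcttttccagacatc
Nfkbia: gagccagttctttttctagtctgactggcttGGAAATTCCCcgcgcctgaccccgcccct
Tnfaip3: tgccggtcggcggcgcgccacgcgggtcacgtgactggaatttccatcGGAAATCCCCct
Cxcl10: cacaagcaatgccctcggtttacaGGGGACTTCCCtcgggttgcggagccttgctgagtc
Ccl3: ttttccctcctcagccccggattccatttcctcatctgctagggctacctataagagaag
A match is a run of letters and not evidence of binding, and a window without a match says nothing about elements elsewhere: Tnf, Il1b, Il1a and Ccl12, all higher in members, also had 0 matches in their windows. Tnfaip3 and Cxcl10 had further matches outside the stretches shown or at other starts. The entries of Ccl4, Ccl2, Ccl7, Nfkbiz and Nfkb1 were not used here.

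Of 20 chemoattractant and danger receptors 6 were called higher and 0 lower, with medians of 0.63 and 1.01. Cd14, the co-receptor for lipopolysaccharide, stood at 775 and 1040 CPM in members against 223 and 262 CPM. Tlr2, a receptor for bacterial lipoproteins, gave log2 ratios of 1.35 and 1.91. The C-type lectins Clec4e (Mincle; 3.04 and 2.21) and Clec4d (2.60 and 2.99), which recognise mycobacterial lipids and dead cells, and the chemerin-binding receptor Ccrl2 (1.98 and 2.06) were further members of the 6. Cx3cr1, the fractalkine receptor, gave 1.35 and 1.09. Ccr2 gave 0.14 and -0.17, so the receptor for Ccl2, Ccl7 and Ccl12 was not higher in the cells that carried more of those ligands.

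Among genes that dissociation can induce, 5 of 23 immediate early genes were called higher (Egr2, Egr3, Nr4a1, Maff and Csrnp1), with medians of 0.80 and 0.78 beside -0.17 and -0.19 over all genes, and of 1.49 and 1.51 against macrophages with none of the 4 genes. Fos stood at 4266 and 3861 CPM in members against 3160 and 2869 CPM in the comparison macrophages, log2 0.43 in both libraries. Jun gave 0.38 and 0.26, and Egr1 gave 0.73 and 0.63. None of the 14 heat shock chaperones was called (0 higher, 0 lower), with medians of 0.13 and 0.15, and Hspa1a gave 0.79 and 0.40. Of 17 feedback inhibitors of inflammation Zc3h12a, an RNase that degrades cytokine mRNAs (1.23 in both libraries), and Dusp2, a MAP kinase phosphatase (2.07 and 1.78), were called higher. Whether digestion of the tissue had a part in the members' genes was not tested, since no undigested sample was measured.

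Several genes outside the lists were among the 12 with the highest lower-of-both ratio. Mir155hg, the host transcript of the inflammatory microRNA miR-155, gave 4.23 and 4.04, from 34.4 and 58.4 CPM in members and 1.83 and 3.56 CPM in the comparison macrophages. Mmp13, a collagenase, gave 3.58 (3.00 to 4.22) and 6.78 (5.22 to 9.06), the latter against 3 UMIs in control comparison macrophages, and 80.5% of its UMIs in control members lay in 5 cells. The adhesion molecule Cadm1 gave 2.55 and 2.22 and the membrane-associated protein Basp1 2.41 and 2.03.

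Of 25 resident macrophage genes 2 were called lower (Cd209d and Txnip) and 0 higher, where 3.24% of all genes tested were called lower, with medians of -0.45 and -0.33 against -0.17 and -0.19 over all genes. Folr2, a folate receptor, stood at 564 and 656 CPM in members against 808 and 828 CPM. Cd163, the scavenger receptor for haemoglobin complexes, stood at 680 and 772 CPM against 949 and 970 CPM. Txnip, a thioredoxin-binding protein, stood at 353 and 338 CPM against 714 and 706 CPM, the same step in both libraries. Mrc1 (0.09 and 0.22) and Lyve1 (-0.44 and 0.06) differed by less than 2-fold. Among the 12 lowest genes outside the list were the lectin Cd209a (-1.17 and -1.69) and Gfra2, a receptor for neurturin (-1.34 and -1.28).

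Of 12 genes of MHC class II and costimulation, Cd86, a ligand of the T cell receptor CD28, was called higher, at 1389 and 1435 CPM against 681 and 587 CPM, and 0 were lower. H2-Aa stood at 4379 and 3583 CPM in members against 2688 and 2969 CPM, log2 0.70 and 0.27. For the other lists few genes were called: 1 of 24 lipid handling genes (Olr1, higher, with 98.1% of its control members' UMIs in 5 cells and -0.64 in the control library with all 4 genes required), 1 of 19 interferon-stimulated genes (Oasl1, higher), 1 of 19 monocyte genes (Nr4a1, higher), 2 of 17 phospholipid and PPAR genes (Lpcat2 and Ppard, higher), 2 of 19 prostaglandin and oxidative genes (Srxn1 and Txnrd1, higher) and 0 of 18 glycolysis and hypoxia genes. Of 12 complement genes 5 were lower (C3, Cd55, Serping1, C1ra and C1s1). Fibroblasts express these genes too, and the part of fibroblast RNA in their ratios was not tested.

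**Figure D3:**
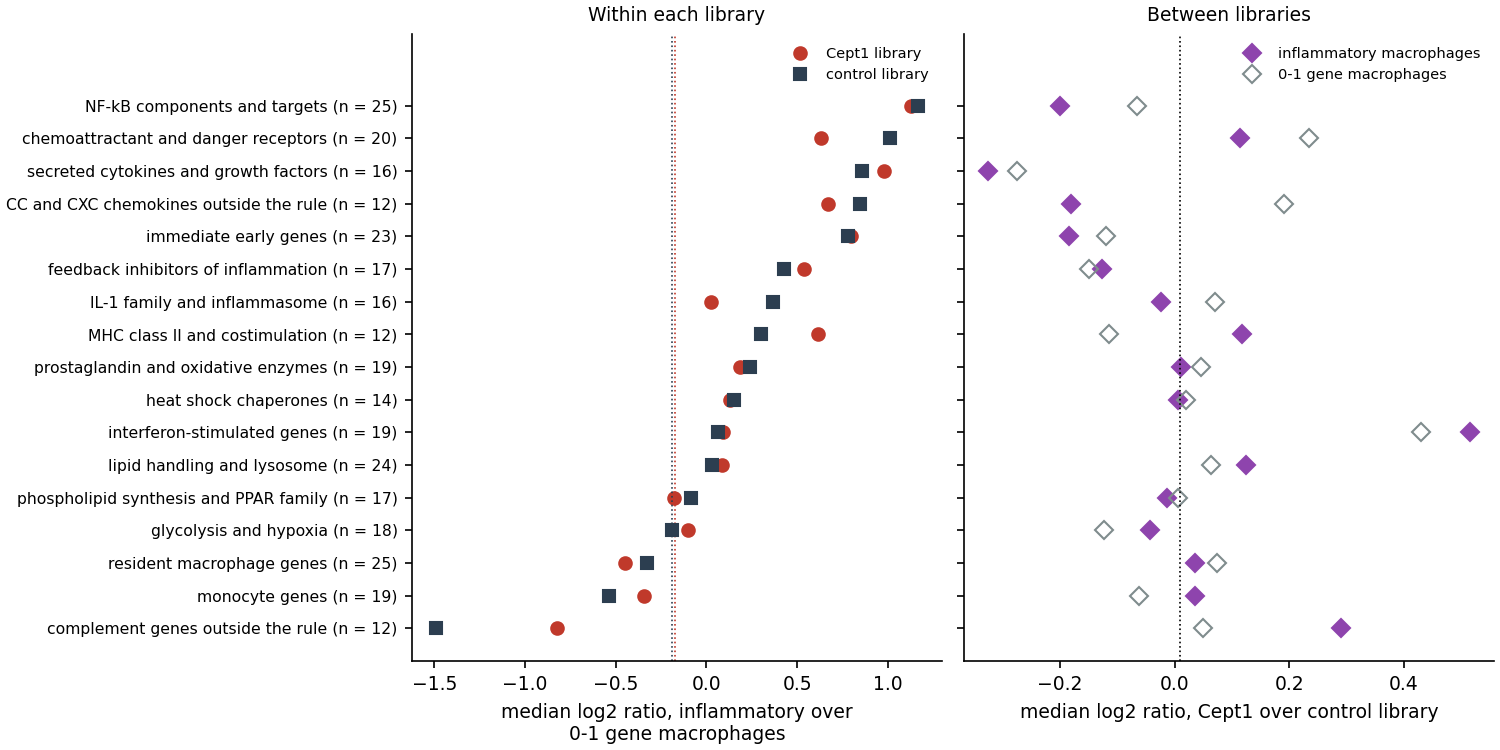
Median log2 ratios of 17 gene lists, inflammatory over comparison macrophages within each library (left, with the number of genes measured) and Cept1 over control library (right; filled diamonds for inflammatory, open for comparison macrophages); dotted lines are the medians of all genes measured. On the left the NF-κB list lies farthest to the right at 1.12 and 1.16, and on the right the interferon-stimulated list lies at 0.51 and 0.43.

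Genes outside the rule were followed over macrophages with 0 to 4 of the rule genes detected. Tnf ran from 17.2, 81.0, 153, 215 to 559 CPM in Cept1 macrophages with 0, 1, 2, 3 and 4 of the genes, and from 23.6, 91.7, 225, 312 to 642 CPM in the control library. Nfkbiz ran from 391.5 to 2239 CPM and from 432 to 2230 CPM over the same range. Not every gene followed in steps: Ccl7 stood at 1305 CPM with 3 and 1083 CPM with all 4 of the genes in the Cept1 library. Ccl2 ran from 228 to 1420 CPM in the Cept1 library and from 215 to 3114 CPM in the control library, so that the libraries were alike in macrophages with none of the genes and apart in those with all 4. Folr2 was lowest with all 4 genes, at 403 and 528 CPM, against 753 and 834 CPM with none. The classes differ in depth, since more UMIs detect more genes, and the part of depth in these steps was not tested.

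**Figure D4:**
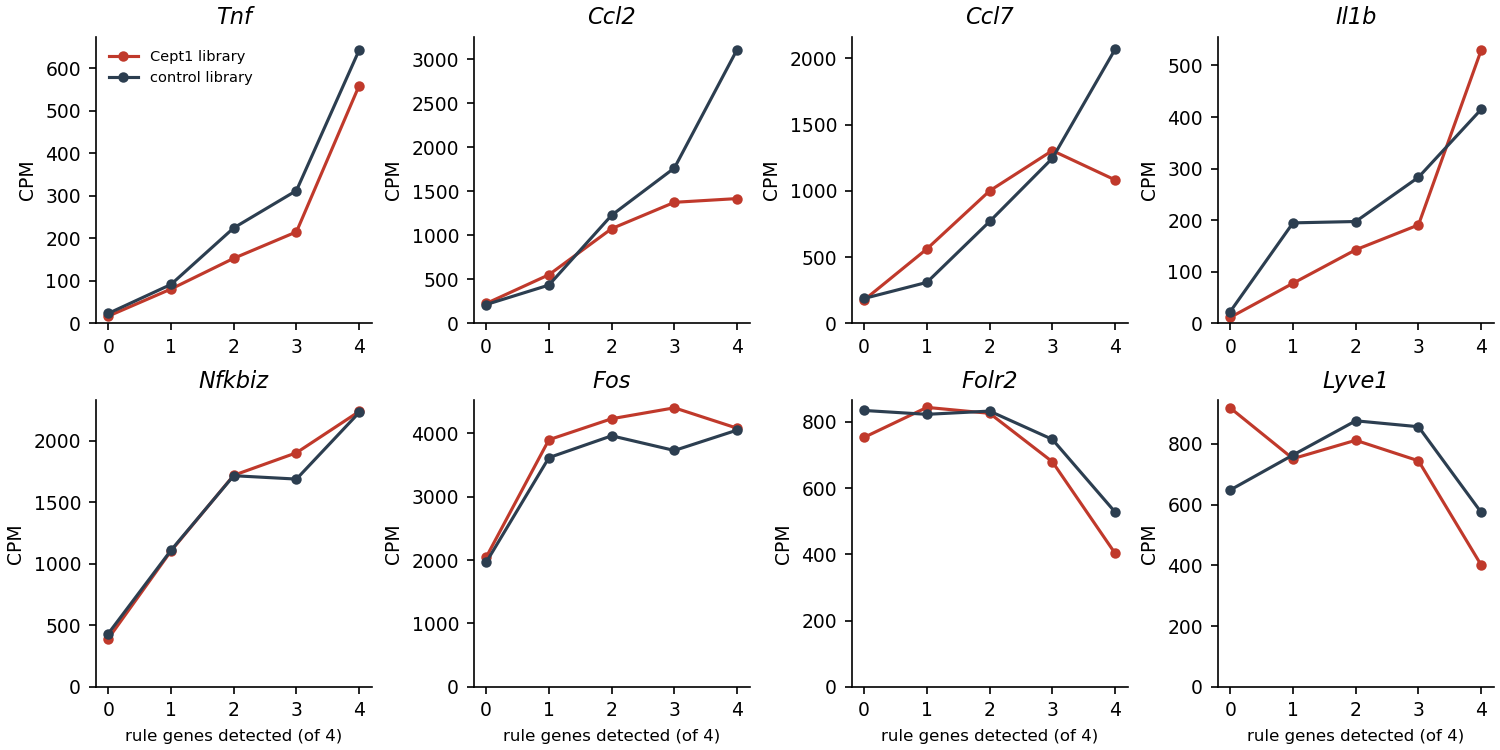
Levels (CPM, linear axis from 0) of 8 genes outside the rule in macrophages grouped by how many of Ccl3, Ccl4, Cxcl2 and Nlrp3 were detected, 1 line per library. Tnf reaches 559 and 642 CPM with all 4 genes and Folr2 falls to 403 and 528 CPM, while the Ccl2 lines part at 3 and 4 genes.

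Members were mostly cells with resident markers. At least 3 of Folr2, Cd163, Lyve1, F13a1 and Cbr2 were detected in 481 of 572 Cept1 members, 84.1% (80.8 to 87.0), and in 201 of 233 control members, 86.3% (81.2 to 90.4). The share in the comparison macrophages was 78.5% and 74.9%. At 3000 UMIs the shares were 73.8% (70.0 to 77.4) and 82.3% (76.7 to 87.0) in members and 76.1% and 77.1% in comparison macrophages. The remaining 91 Cept1 and 32 control members had fewer than 3 of these genes.

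Members with few resident markers differed from the others in what they carried, in the same direction in both libraries for the genes named here. Ly6c2, a marker of blood-derived monocytes, had 89 UMIs in them and 1 UMI in the 481 other Cept1 members, and 36 UMIs and 1 UMI in the control library. Ccr2 stood at 435 and 491 CPM in members with few resident markers against 85.7 and 51.0 CPM in the others. Il1b stood at 1221 and 1603 CPM against 132 and 155 CPM, so most of the Il1b of the inflammatory macrophages lay in the smaller set (1321 of 1953 and 659 of 1099 UMIs). Over all members 23.2% and 46.7% of the Il1b UMIs lay in 5 cells of each library. Tnf (log2 1.55 and 1.58), Ccl4 (1.88 and 1.63) and Tnip3, an inhibitor of NF-κB signalling (4.04 and 4.53), were also higher in the smaller set. The Ccr2 ligands went the other way. Ccl7 stood at 288 and 248 CPM in members with few resident markers and at 1421 and 1782 CPM in those with many, Ccl2 gave log2 ratios of -1.75 and -0.86, and Ccl12 gave -1.28 and -1.38. Ccl8 (-4.83 and -4.38) and the complement component C4b (-3.93 and -4.61) lay almost wholly in members with many resident markers. Cxcl2 (0.44 and 0.09) and Nlrp3 (0.31 and 0.19) differed little between the sets. The rule chose the members of both sets by Ccl4, Cxcl2 and Nlrp3, so the values of these genes are a description.

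Across single members the chemokines did not vary as 1 block. Ccl2 and Ccl7 had a Spearman correlation of 0.62 over 569 thinned Cept1 members and 0.60 over 226 control members, and Ccl3 with Ccl4 gave 0.28 and 0.36. Cxcl2 with Nlrp3 gave 0.28 in both libraries. Il1b with Folr2 gave -0.33 and -0.36. These values are descriptions over cells that share a library and were thinned to the same depth; the correlations among the rule genes are shaped by the rule, which asks for 3 of the 4.

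Between the libraries a gene was called in members at 1.5-fold or more, among the 8215 genes with at least 100 UMIs over both libraries. Of these 314 were higher in the Cept1 library, 3.82%, and 266 lower, 3.24%, 7.06% in either direction. Without barcodes of a high doublet score, which removed 56 Cept1 and 3 control members, the split was 205 higher and 456 lower. The 5 smooth muscle markers summed to 519 CPM in Cept1 and 1526 CPM in control members, and to 1082 and 1270 CPM in comparison macrophages, and their part in the calls was not tested. Ccl3, Ccl4, Cxcl2 and Nlrp3 chose the members in both libraries, so their values are a description. For the genes the label or the rule rests on, the log2 ratio was 0.15 (0.07 to 0.24) for Ccl3, 0.08 (0.03 to 0.13) for Ccl4, -0.17 (-0.20 to -0.15) for Cxcl2, -0.17 (-0.25 to -0.09) for Nlrp3, 0.15 (0.07 to 0.24) for Ccl12 and -0.01 (-0.08 to 0.07) for C5ar1. Il1b gave -0.02 (-0.13 to 0.08) and Tnf -0.32 (-0.42 to -0.23). Cept1 itself had 497 UMIs in Cept1 members and 255 in control members, 84.6 and 78.4 CPM and a log2 ratio of 0.11 (-0.11 to 0.33). Ppara had 8 and 6 UMIs, too few to compare, and Vegfa 54 and 18 UMIs, a log2 ratio of 0.73 (-0.06 to 1.59).

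Of 14 chemokines 1 was called higher in the Cept1 library and 3 lower, with a median of -0.18 against 0.01 over all genes. Ccl8, a monocyte-attracting chemokine, was the higher one. It had 6333 UMIs in Cept1 members and 580 in control members, 1078 and 178 CPM and a log2 ratio of 2.60 (2.47 to 2.72), detected in 312 of 572 (54.5%) and 84 of 233 (36.1%) members. Thinned to 3000 UMIs it was detected in 40.2% and 19.0% of members and in 6.23% and 2.39% of fibroblast-gated barcodes. The ratio had the same sign in comparison macrophages, 1.60 (1.51 to 1.68). Ccl2 was lower, at 1395 against 2326 CPM (8196 and 7564 UMIs), a log2 ratio of -0.74 (-0.78 to -0.69), whereas in comparison macrophages it was 0.33 (0.24 to 0.43). Ccl7 showed the same crossing, -0.39 (-0.44 to -0.34) in members and 0.68 (0.57 to 0.79) in comparison macrophages, with the members' value under the call. Cxcl1 was lower by the call, with -0.60 (-0.72 to -0.49). Ccl5 gave -2.27, but 98.2% of its 165 control UMIs lay in 5 cells. Ccl2, Ccl7, Ccl12 and Ccl8 lie in 1 stretch of the plus strand of chromosome 11 in the mm10 annotation, within chr11:82035571-82116799, and so had log2 ratios from -0.74 to 2.60 inside 1 cluster.

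The interferon-stimulated genes were the list with the highest median between the libraries. Of 22 measured genes 11 were called higher in Cept1 members and 1 lower, with a median of 0.51, and the median in comparison macrophages was 0.43. The antiviral enzymes Rsad2 (1.22, 0.88 to 1.57) and Oas1a (1.19, 0.67 to 1.74), and Irf7 (0.87, 0.43 to 1.32), which amplifies type I interferon, were among the 11. Isg15, a ubiquitin-like protein induced by interferon, went against the list with -1.29 (-1.61 to -0.97), with 63.3% of its control UMIs in 5 cells. In members with many resident markers Isg15 gave 0.03 and Ifit1 2.52. In those with few, Isg15 gave -2.89 and Ifit1 -3.11. With both sets weighted equally the list's median was 0.15. A few cells carried much of the signal of single genes, with 55.8% and 70.5% of Rsad2 UMIs in 5 cells of each library, and Rsad2 gave 0.40 in members with all 4 rule genes.

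Of 16 cytokines 0 were called higher and 4 lower (Il6, Pdgfa, Hbegf and Tnfsf9), with a median of -0.33, beside -0.28 in comparison macrophages. Hbegf, an EGF receptor ligand, had 259 and 294 UMIs in 126 and 94 members, a log2 ratio of -1.04 (-1.28 to -0.79). For Il6 (-1.02) 74.7% and 86.0% of the UMIs lay in 5 cells, and the ratio was 2.05 with all 4 genes required and -0.41 with at least 2 UMIs of 3 of them. Of 26 genes of the NF-κB list 20 had a ratio below 0, with a median of -0.20, and Nfkb1 (-0.61, -0.67 to -0.54), Icam1 (-0.68) and Cd40 were called lower. Tnip3 was called higher (0.92, 0.73 to 1.10), with 53.9% and 62.5% of its UMIs in 5 cells. Of the immediate early genes Gadd45b (-0.93, -1.04 to -0.83) and Egr3 (-0.78, -0.96 to -0.61) were called lower. Fos gave 0.14, Jun 0.11 and Egr1 0.13, so the most abundant of these genes did not follow them. Of the feedback inhibitors Ier3 (-0.63, -0.69 to -0.56) and Hmox1, the haem-degrading enzyme (-0.92, -1.01 to -0.82), were called lower; Hmox1 gave 0.036 when the sets with many and few resident markers were weighted equally. Nfkb1, Icam1, Cxcl1, Cd40, Ier3 and Pdgfa lay close to the 1.5-fold line and were inside it under some alternatives, Nfkb1 with -0.57 and Cxcl1 with -0.45 when barcodes were thinned to 3000 UMIs before the rule, and Icam1 with -0.53 when all 4 genes were required. Pdgfa turned to 0.31 when the sets with many and few resident markers were weighted equally. In cells chosen by the rule after that thinning, Hbegf gave -1.04, Gadd45b -0.89 and Ccl2 -0.81. These ratios use all UMIs of the chosen cells, so depth was not made equal in them. Control members were the deeper ones, and the part of depth was not tested.

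Of 13 complement genes 4 were called higher in Cept1 members (C3, C4b, Cfb and Itgax) and 0 lower. The list's median was 0.29, beside 0.05 in comparison macrophages. In control members 91.7% of the 36 Itgax UMIs and 66.7% of the 183 C3 UMIs lay in 5 cells. C4b had 2534 and 849 UMIs, a log2 ratio of 0.72 (0.61 to 0.84), and 0.69 in comparison macrophages. Cfb, the alternative pathway protease, had 329 and 47 UMIs in 165 and 33 members, a ratio of 1.95 (1.51 to 2.43). C3 gave 0.72, and -0.34 without barcodes of a high doublet score, when the list's median was 0.01.

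Among single genes outside these lists, Pde7b, a cyclic AMP phosphodiesterase, had 1870 and 432 UMIs in 321 and 100 members, a log2 ratio of 1.26 (1.11 to 1.41), and 0.86 in comparison macrophages. Fcgr4, an activating Fc receptor, gave 1.12 (0.76 to 1.49) from 159 and 38 members. Myocd, known as a smooth muscle coactivator, gave 1.24 (0.93 to 1.57) in members and 1.32 in comparison macrophages. Batf, an AP-1 family transcription factor, was lower, with 244 and 322 UMIs in 140 (24.5%) and 108 (46.4%) members, a ratio of -1.25. Slc39a12, a zinc transporter, was lower with 69 and 149 UMIs in 46 and 68 members, -1.96 (-2.40 to -1.54), and gave -0.13 (-0.74 to 0.50) in comparison macrophages.

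Other genes at the ends of the ranking rested on very few control cells. For Plac8 (2.73) 84.6% of 39 control UMIs, for Slc7a11 (2.03) 80.0% of 50 and for Mmp12 (1.80) 95.4% of 173 lay in 5 cells, and for Slpi (-2.45) 87.0% of 193 lay in 1 cell. Of the resident list Vsig4 alone was called (lower, -1.04), with a median of 0.04, and of 24 lipid handling genes Plin2, a lipid droplet coat protein, was higher at 0.66 (0.55 to 0.78) and Olr1 lower (-0.72). Vsig4 turned to 0.10 with at least 2 UMIs required of 3 genes. With the rule applied to barcodes thinned to 3000 UMIs, Vsig4 gave 0.44 and Plin2 0.50, and Plin2 gave 0.42 with all 4 genes required. For Olr1, 71.4% of the control members' UMIs lay in 1 cell, and the ratio was 2.51 with all 4 genes required. Monocyte genes had a median of 0.04, with 4 called higher (Plac8, Hp, Itgal and Ace) and 1 lower (Fn1). Fn1 turned to 1.00 with all 4 genes required and to 0.044 with the rule applied to thinned barcodes. Ace gave 0.31 without high doublet scores and Itgal 0.043 with the resident sets weighted equally. MHC class II genes (median 0.12, Cd40 lower), receptors (0.11, 0 called of 21), heat shock chaperones (0.01, Hsph1 higher), IL-1 and inflammasome genes (-0.02, P2rx7 lower), glycolysis genes (-0.04, Pfkl higher), prostaglandin and oxidative genes (0.01, Slc7a11 higher and Srxn1 lower) and phospholipid and PPAR genes (-0.01, Pparg higher) had medians near that of all genes. Of these calls P2rx7, Pfkl, Srxn1 and Pparg were inside the 1.5-fold line under some alternatives. Srxn1 gave 0.11 when the resident sets were weighted equally, and Pparg -0.069 with the rule applied to thinned barcodes.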

How the data were processed

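Per the file headers, the deposited files are integer matrices of raw UMI counts per gene and barcode written by Cell Ranger 7.2.0, and the submitters' processing notes name mm10, Cell Ranger and Seurat. Annotation, intron and strand settings: not given in the sources used here. Both libraries list 32285 features. The members, lists and rules were chosen with earlier results of these data known.

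Barcodes were kept from 500 detected genes up and to a mitochondrial share of 10% (Python 3.11.15, numpy 2.4.6, pandas 2.3.3, scipy 1.17.1). Doublet scores came from Scrublet in scanpy 1.11.5, run per library; no barcode was removed by score in the reported values. Raw counts were summed over the cells of a population and library and divided by all their UMIs (CPM), and log2 ratios carry the exact interval of the split of the UMIs. Cells are not replicates, so no p-value was computed. A step on simulated data with known fold changes was used to check the script. Library ratios were called at 1.5-fold (at least 100 UMIs over both libraries), and ratios to the comparison macrophages at 2-fold in both libraries (at least 100 UMIs in each). Genes of the rule were left out of calls.

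Genes named beyond the lists were the 12 highest and 12 lowest in each comparison with at least 200 UMIs, leaving out unnamed gene models, mitochondrial, ribosomal, haemoglobin and antigen receptor genes and genes whose level could come from free RNA, plus up to 4 per list and comparison with the largest ratio, and Ccl3, Ccl4, Cxcl2, Nlrp3, Ccl12, C5ar1, Cept1, Ppara and Vegfa. Other list genes named for their role in a pathway (Fos, Jun, Casp1, Pycard, Ccl6, Irf7 and the like) and the genes compared between sets with many and few resident markers were chosen after their values were seen. Of the listed genes Cxcl11, Clec7a, Mx1 and Mx2 were not analysed here. Upstream sequences are RefSeq's (GRCm38.p6) and gene positions those of the mm10 annotation, matched by ID for 32158 features. Alternatives varied the barcode filter, the rule, thinning, doublets, other cells' markers, cell weights, centring, UMI minimum, fold and depth. In the thinning alternative, thinned counts set which cells met the rule, and the ratios used all UMIs of those cells. An alternative was taken as unchanged when a gene or share stayed within its interval, a list's median within 0.5 of the interquartile range of its genes, and a count within 1.5 times.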

Additional observations from a re-analysis of the deposited data

Results flagged for a closer look

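Among the genes named by rule, 4 had ratios between the libraries of at least 1.5-fold in opposite directions in inflammatory and comparison macrophages, with both counting intervals clear of 0. The difference was not tested, since there is 1 library per group. Slc7a11, a cystine transporter, gave a log2 ratio of 2.03 (1.60 to 2.49) in inflammatory macrophages and -1.31 (-1.99 to -0.64) in comparison macrophages, a difference of 3.34, on 370 and 50 UMIs in the former and 33 and 49 in the latter. Mmp13 gave -0.82 (-1.07 to -0.58) and 2.38 (0.67 to 4.75), a difference of -3.20, with 26 and 3 UMIs in comparison macrophages. Tnip3 gave 0.92 (0.73 to 1.10) and -1.12 (-1.47 to -0.78), a difference of 2.04. Pparg, a lipid-sensing nuclear receptor, gave 0.67 (0.35 to 0.99) and -0.61 (-0.93 to -0.28), a difference of 1.27. Its value in inflammatory macrophages was -0.069 when barcodes were thinned to 3000 UMIs before the rule and 0.35 without high doublet scores. In control members 80.0% of the Slc7a11, 80.5% of the Mmp13, 62.5% of the Tnip3 and 53.5% of the Pparg UMIs lay in 5 cells.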

How the results depend on the processing

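All 21 alternative values of the ratio of shares between the libraries stayed within that ratio's interval. The shares of kept barcodes themselves moved with the rule, from 2.01% and 1.10% with all 4 genes required to 6.79% and 3.75% with the stricter barcode filter (1000 genes, 5% mitochondrial UMIs). Of the medians of the lists, 195 of 204 alternative values between the libraries and 347 of 374 against comparison macrophages were unchanged by the tolerance given in the methods. That tolerance is a spread among a list's genes and not an error of its median, so these counts say little about stability. The fall of the complement median between the libraries without high doublet scores, given above, counted as unchanged. Single named genes were judged by another tolerance, their own counting intervals. Between the libraries 1135 of their alternative values were unchanged, 361 left their interval and 15 reversed a call. Against comparison macrophages 1762 were unchanged, 888 left their interval and 10 reversed a call. No paired analysis was possible because there is 1 library per group, and for the same reason no replicate could be left out. The cause was not tested for any change given here, except where fewer genes, another fold or other cells enter by construction. Calling at 2-fold left 82 genes higher and 68 lower in the Cept1 library. A minimum of 50 UMIs gave 556 and 485, and 395 lower against comparison macrophages. A minimum of 400 UMIs gave 57 and 86, and 89 higher and 84 lower against comparison macrophages, with list medians of 0.32 (interferon, Cept1), 0.70 and 0.90 (phospholipid, Cept1 and control) and -0.56 (complement, control). Without barcodes of high doublet score 205 genes were higher and 456 lower between the libraries, and C3 reversed to -0.34. Without barcodes with markers of other cell types 171 were lower between the libraries and 36 lower against comparison macrophages. The list medians then were -0.58 (cytokines) and 0.89 (interferon) between libraries, -0.64 and -0.65 (resident, Cept1 and control), 0.39 (MHC class II, Cept1), -0.18 (lipid, Cept1), 2.17 (cytokines, control) and -0.14 (monocyte, control) against comparison macrophages. Isg15 reversed to 0.13 between libraries, and Plac8 to 0.048, C1s1 to 0.47 and Ndrg1 to 1.69 against control comparison macrophages.

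With all 4 genes required, list medians between libraries were 0.24 (IL-1), -0.17 (resident) and 0.26 (MHC class II), and against comparison macrophages -0.86 and -0.63 (resident), 0.88 (MHC class II, Cept1) and -1.29 (monocyte, control). Slpi reversed to 3.66, Il6 to 2.05, Fn1 to 1.00 and Olr1 to 2.51 between libraries, and Slpi to -3.85 and Olr1 to -0.64 against control comparison macrophages. With at least 2 UMIs required of 3 genes, the resident medians were -0.61 and -0.60, Slpi reversed to 1.00 and Vsig4 to 0.10 between libraries, and Slpi to -0.70 against control comparison macrophages. With the rule applied to barcodes thinned to 3000 UMIs, the resident medians were -0.70 and -0.87 and the MHC class II median 0.53 (control). There Slpi reversed to 2.25, Vsig4 to 0.44, Fn1 to 0.044 and Pparg to -0.069 between libraries, and Slpi to -5.07 against control comparison macrophages. In the same cells, with all their UMIs counted, Ccl8 gave 3.43, Ccl2 -0.81, Hbegf -1.04 and Gadd45b -0.89. With sets of many and few resident markers weighted equally, 718 genes were higher between libraries, and list medians were -0.26 (IL-1), 0.20 (heat shock), 0.20 (resident) and 0.15 (interferon). Pdgfa reversed to 0.31, Hmox1 to 0.036 and Srxn1 to 0.11. Against macrophages with none of the 4 genes 273 genes were higher, with medians of 1.72 and 1.62 (NF-κB), 1.49 and 1.51 (immediate early), 1.00 (feedback, Cept1), 0.32 (heat shock, Cept1) and 0.62 (MHC class II, control). In barcodes of 5000 to 15000 UMIs 146 genes were lower, the complement median was -0.71 (control), and Slpi (-0.16), Ccl5 (-2.33) and Tnip3 (-1.26) reversed against control comparison macrophages. Genes with under 100 UMIs were not measurable by the rule used.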
